A study of Mus musculus with 26 samples.

Results

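The muscle and non-muscle forms of 37 mouse genes of glycolysis, glycogen handling and sugar transport were followed through muscle regeneration and through C2C12 differentiation with and without knockdown of Mettl3. Members were chosen by symbol: 13 muscle forms, 15 non-muscle forms and 9 genes of steps that have a single or shared gene, of 53465 genes listed for muscle and 55487 for cells. The levels are FPKM, in which fragments are divided by gene length and library size, so levels of different genes can be compared. Tibialis anterior (TA) muscle of 6-week-old male C57BL/6J mice, as the methods state, came from day 0 and from days 1, 3, 5 and 10 of repair after cardiotoxin (CTX) was injected, a venom protein that destroys muscle fibres. All muscle groups are wild type, and whether day 0 muscle was untouched or given saline is not settled by the sources. C2C12, an established mouse myoblast line, was a control (CTRL, whose construct the sources used here do not describe) or carried guides to the Mettl3 promoter, made from a U6 promoter, with dCas9-KRAB, a repressor that cuts no DNA (Cas9M3, a knockdown in the methods). METTL3 is the enzyme that writes m6A onto RNA. Cells infected with the lentivirus were selected with puromycin as stable lines, and were sequenced in growth medium (D0) and after 3 days in differentiation medium with horse serum (D3). Each of the 9 groups had 2 libraries, 10 from muscle and 8 from cells, and the sources do not say that the 2 libraries of a group came from separate animals or cultures, so p-values measure the spread between libraries.

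Glycolysis splits glucose into pyruvate, which muscle fibres turn into lactate when work is intense. Many of its steps are run by isoforms from separate genes: one that is the main form of muscle fibres, and others made in other tissues, in dividing cells or in blood and immune cells. A muscle form in this sense can also be the main form elsewhere. Aldoa and Ldha made up at least 99.83% and 96.3% of their families in the C2C12 cells. Fibres also store glucose as glycogen and release it through a muscle phosphorylase, whereas liver and brain have phosphorylases of their own. A change of isoform has long been known as a mark of muscle maturation.

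Reads on genes, inferred from the steps in low values, came to 14.2 to 18.8 M in the muscle libraries and 14.2 to 29.6 M in the cell libraries. Of the 37 members, 35 passed the filter of 0.5 FPKM in at least 2 libraries in muscle (Slc2a3 and Aldoc did not) and 30 in cells (Slc2a3, Slc2a4, Aldoc, Hk3, Fbp2, Pygl and Phkg1 did not). The muscle label fitted its markers, the 10 of the fibre list summing to 76092 and 67298 FPKM at day 0. They summed to 21702 and 17237 FPKM on day 3, while the 7 macrophage markers rose from 48.5 and 99.1 FPKM to 1615 and 1577. The 7 satellite cell and new fibre markers rose from 40.0 and 54.4 FPKM to 926 and 1428. The 5 fibroblast markers rose from 56.9 and 168 FPKM to 637 and 717, and the 4 endothelial markers fell from 49.9 and 69.7 to 37.6 and 29.4. In bulk muscle, fewer cells of a type and less RNA per cell cannot be told apart. Xist, the RNA of the inactive X chromosome, stood at 5.77 FPKM or more in 5 libraries, namely the 4 of days 0 and 10 and replicate 2 of day 3, and the other muscle libraries carried Y-linked transcripts, although the methods state male mice. In the cell table, replicate 1 of CTRL-D0 and of Cas9M3-D0 had fibre marker sums of 162 and 115 FPKM, against 25.8 and 7.50 in replicate 2. Ribosomal RNA genes took 0.391% to 0.514% of the reads in replicate 1 of the cell groups. In replicate 2 they took 27.3% in CTRL-D0, 8.03% in CTRL-D3, 9.77% in Cas9M3-D0 and 11% in Cas9M3-D3. The part of these differences in the results below was not tested, apart from the fits that leave out a library or add a term for Xist. That term could be estimated only from the 2 libraries of day 3, since on each other day both libraries had Xist or neither had. Calls kept or lost with the term therefore cannot separate Xist from day.

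On day 3 the muscle forms were at their lowest and most non-muscle forms at their highest. All 13 muscle forms and all 9 single or shared genes had their lowest mean on day 3, against 32.2% of all 16753 genes tested. All 13 muscle forms had their highest mean at day 0. Of the 13 non-muscle forms that passed the filter, 8 were highest on day 3, where 31.5% of all genes peaked, and 8 were lowest at day 0, where 27.7% were.

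Between day 0 and day 3, 25 members fell and 6 rose in the limma fit with Benjamini-Hochberg adjustment, where a call needs an adjusted p no higher than 0.05. Over all genes tested, 24.3% fell and 24.5% rose in that comparison. The calls were 13 falls among 13 muscle forms, 9 falls among 9 single or shared genes, and 3 falls and 6 rises among 13 non-muscle forms. The median log2 fold change was -2.20 for the muscle forms, -1.64 for the single or shared genes and 0.86 for the non-muscle forms, beside 0.0075 for all genes. The muscle forms ranged from -3.02 to -1.49 and the 10 fibre markers, from their means, from -3.52 to -1.17 with a median of -2.08. In all 35 members the libraries of day 3 and day 0 did not overlap, which also held for 77.9% of all genes tested. With a term for Xist in the fit, 25 members were again lower and 6 higher, beside 34.9% of all genes called. That term rests on the difference between the libraries of day 3.

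**Figure D1:**
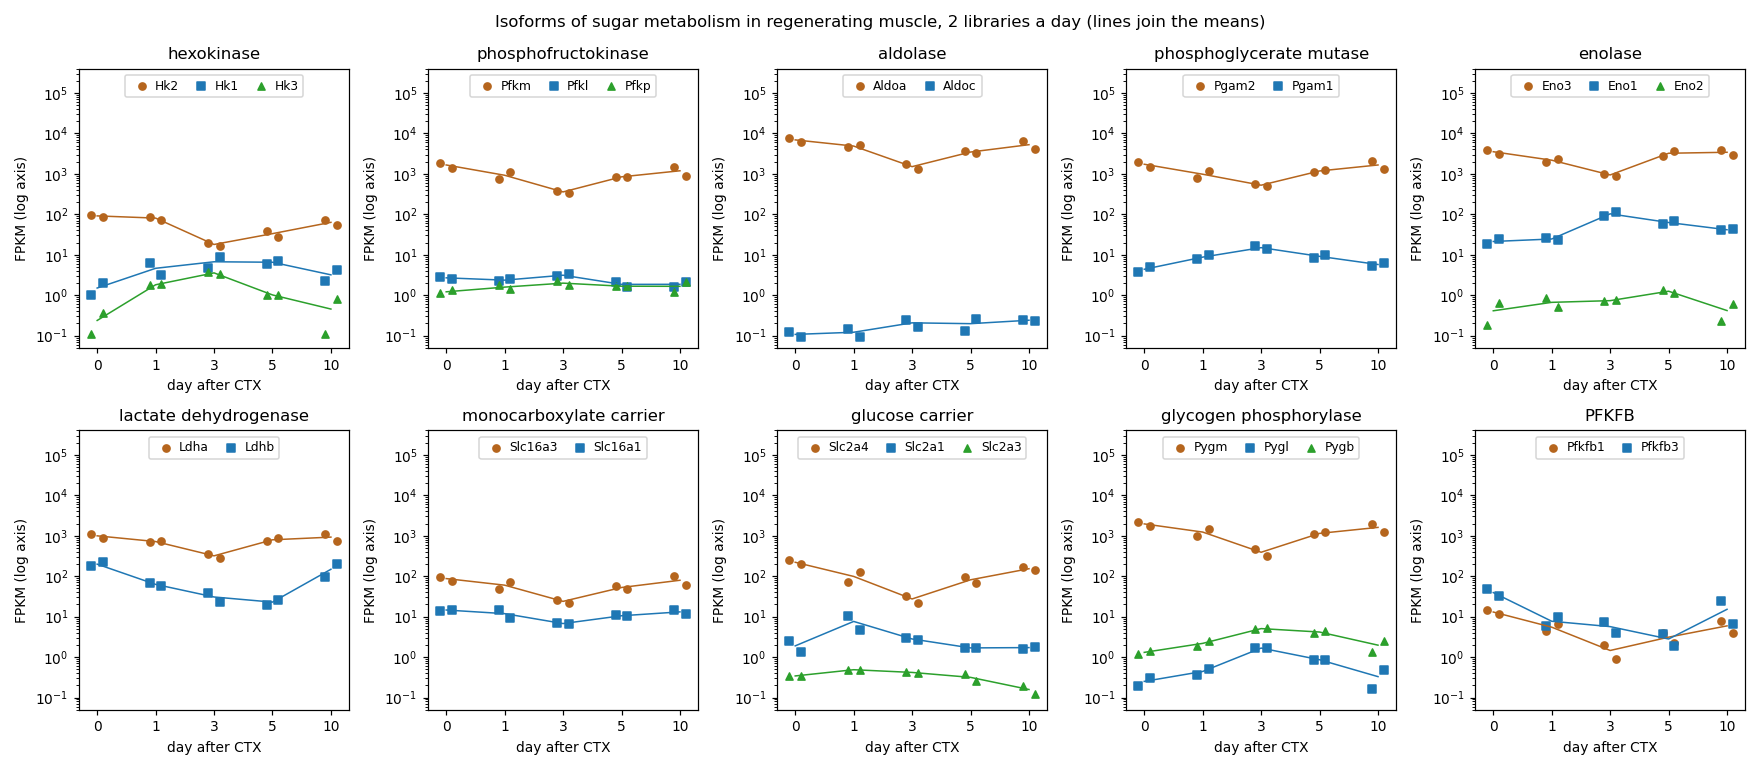
FPKM on a log axis against the day after CTX for 10 isoform families, with 1 point per library and lines through the means. The first-named forms (brown circles) dip on day 3 in every panel, while Hk1, Hk3, Pgam1, Eno1, Pygl and Pygb (blue squares and green triangles) are highest there or close to it.

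Glucose enters fibres through GLUT4 (Slc2a4), the carrier that insulin brings to the surface, and most other cells through GLUT1 (Slc2a1). Slc2a4 stood at 245 and 196 FPKM at day 0, 72.5 and 125 on day 1, 32.5 and 22.2 on day 3, 93.6 and 69.3 on day 5, with 167 and 139 by day 10. Both day 3 libraries were below every other library. Its fall of 3.02 (SE 0.31) on the log2 scale, 8.14-fold, was the second largest among the members (adjusted p = 4.3e-04, limma). Slc2a1 went the other way and earlier, with 2.45 and 1.35 FPKM at day 0 and 10.6 and 4.60 on day 1. By day 3 it was at 2.98 and 2.64 FPKM, and the difference from day 0 was not called (log2 fold change 0.60, SE 0.39, adjusted p = 0.246). GLUT3 (Slc2a3), a carrier of high affinity best known from neurons, was at 0.125 to 0.494 FPKM in all muscle libraries, under the filter. Hexokinase then traps glucose as glucose 6-phosphate. Hk2, the form of muscle and fat, was at 95.9 and 86.7 FPKM at day 0, 87.3 and 73.8 on day 1, 19.4 and 16.5 on day 3, 39.6 and 26.9 on day 5, with 73.2 and 53.4 by day 10. It was thus still close to its day 0 level on day 1 and fell between days 1 and 3. Hk3, a form of blood and immune cells, rose most of all members, from 0.109 and 0.366 FPKM to 3.74 and 3.38 on day 3 (11.7-fold; log2 fold change 3.55, SE 0.64, adjusted p = 0.00322). Hk1, the form of most tissues, rose from 1.03 and 1.98 to 4.75 and 8.66 FPKM (4.26-fold, adjusted p = 0.00867). Hk2 thus made up 98.8% and 97.4% of the summed hexokinase FPKM at day 0 but 69.6% and 57.7% on day 3. Leaving aside Pfkfb1, counted with the single or shared genes, that was below the share of the muscle form in any other family.

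Phosphofructokinase commits sugar to glycolysis. Its muscle subunit Pfkm had 1899 and 1416 FPKM at day 0, 372 and 343 on day 3, with 1498 and 882 by day 10. The liver subunit Pfkl stayed between 1.61 and 3.28 FPKM in all 10 libraries and the platelet subunit Pfkp between 1.11 and 2.22, neither called on day 3. Pfkm was therefore 98.6% of the family in both day 3 libraries, down from 99.79% and 99.73%. The bifunctional enzymes that set fructose 2,6-bisphosphate, the activator of phosphofructokinase, both fell. Pfkfb1, the form of liver and muscle, went from 14.2 and 11.8 FPKM to 2.03 and 0.886, the largest fall of all members (9.01-fold; log2 fold change -3.17, SE 0.46, adjusted p = 0.00137). Pfkfb3, the inducible form, was at 47.1 and 31.6 FPKM at day 0 and at 5.74 and 9.64 on day 1, a difference not called on day 1 (adjusted p = 0.0702). It was at 7.48 and 3.86 FPKM on day 3 (7.06-fold lower; log2 fold change -2.82, SE 0.64, adjusted p = 0.00867) and lowest on day 5, at 3.68 and 1.93. The day 3 call was lost without replicate 1 of day 0 (adjusted p = 0.0547, limma) or replicate 2 of day 3 (0.0597). Although counted with the non-muscle forms, it did not move with them. Fbp2, the muscle enzyme that runs the step backwards, fell from 25.7 and 17.2 FPKM to 6.62 and 4.81, and was at 14.2 and 7.70 on day 10.

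Further down the pathway, the pairs split most clearly at mutase and enolase. Pgam2, the muscle phosphoglycerate mutase, was at 1945 and 1507 FPKM at day 0, 784 and 1172 on day 1, 556 and 492 on day 3, 1103 and 1254 on day 5, with 2027 and 1285 by day 10. Pgam1, the form of most other tissues, was at 3.68 and 5.07 FPKM at day 0, 7.70 and 9.77 on day 1, 16.2 and 13.8 on day 3, 8.48 and 9.78 on day 5, with 5.22 and 6.26 by day 10. Day 3 was the lowest day of Pgam2 and the highest of Pgam1, and overlapped no other day in either gene. Eno3, the muscle enolase, fell from 3859 and 3182 FPKM to 1006 and 872 and had returned to 2805 and 3652 by day 5. Eno1, the form of most tissues, rose from 18.4 and 24.2 FPKM to 92.5 and 113 (4.83-fold; log2 fold change 2.27, SE 0.18, adjusted p = 2.76e-04), which with Ugp2 was the smallest adjusted p among the members. On day 10 it was still at 40.2 and 42.8 FPKM, above both day 0 libraries. Eno2, the enolase of neurons, was at 0.188 to 1.36 FPKM and was not called. The share of Eno3 in the 3 enolases went from 99.52% and 99.2% to 91.5% and 88.5%. Aldolase was Aldoa on every day, since Aldoc, the brain form, stood at 0.0918 to 0.264 FPKM in all muscle libraries, the level of a few reads. Aldoa was the most abundant member, at 7833 and 5976 FPKM at day 0 and 1710.4 and 1301 on day 3. A second row named Aldoa, a gene model beside the first, is not counted among the members and was at 59.5 and 65.5 FPKM at day 0 and 10.3 and 5.38 on day 3.

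Lactate dehydrogenase showed another pattern, because both of its forms fell. Ldha, the muscle form that favours lactate, had 1121 and 868 FPKM at day 0 and 357 and 280 on day 3. Ldhb, the form of heart and oxidative fibres, had 178 and 219 FPKM at day 0, 69.8 and 55.8 on day 1, 38.4 and 22.9 on day 3, 19.7 and 26.0 on day 5, with 97.7 and 199 by day 10. Days 3 and 5 overlapped and were its lowest, whereas Ldha was already at 725 and 862 FPKM on day 5. The share of Ldha was 86.3% and 79.9% at day 0 and 97.3% and 97.1% on day 5. The lactate carriers fell together, MCT4 (Slc16a3), the exporter of fast fibres, from 96.4 and 78.2 to 26.3 and 21.4 FPKM, and MCT1 (Slc16a1), the more general carrier, from 14.2 and 15.01 to 7.11 and 6.40. The slow fibre markers Myh7, Tnni1, Tnnt1, Myl2 and Myl3 summed to 128 and 381 FPKM at day 0 and 302 and 421 on day 3. That sum hides opposite moves. The day 3 means of Myh7, Myl2 and Myl3 were 0.188, 0.0921 and 0.0342 times those of day 0. Tnni1 was at 11.7 times and Tnnt1 at 3.42 times its day 0 mean. The part of these markers in the Ldhb values was not tested.

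The glycogen genes of muscle fell as a group. Pygm, the muscle glycogen phosphorylase whose loss causes McArdle disease, had 2182 and 1740 FPKM at day 0, 979 and 1486 on day 1, 459 and 322 on day 3, 1083 and 1204 on day 5, with 2004 and 1214 by day 10. The liver form Pygl rose from 0.198 and 0.304 FPKM to 1.68 and 1.67 (5.11-fold; log2 fold change 2.35, SE 0.40, adjusted p = 0.00265). The brain form Pygb rose from 1.20 and 1.42 to 4.98 and 5.15 FPKM (3.68-fold, adjusted p = 0.00151). Pygm remained 98.6% and 97.9% of the family even on day 3, because its level stayed far above theirs. Phosphorylase kinase, which switches the enzyme on, lost its muscle subunits Phka1, from 136 and 99.6 to 31.8 and 13.5 FPKM, and Phkg1, from 129 and 82.4 to 22.6 and 12.4, along with the shared subunit Phkb, from 46.2 and 30.6 to 13.5 and 10.7. On the building side, glycogen synthase Gys1 went from 145 and 155 to 45.9 and 61.8 FPKM, the branching enzyme Gbe1 from 20.7 and 27.5 to 6.02 and 4.32, and Ugp2, which makes UDP-glucose, from 271 and 252 to 56.2 and 48.8. Gbe1 was unlike most, being at 25.2 and 22.95 FPKM on day 1 and falling only after it.

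The single genes of the pathway fell as well. Gpi1, Tpi1, Gapdh, Pgk1 and Pkm encode the isomerases, dehydrogenase and kinases between the isoform pairs. Gpi1, Tpi1, Pgk1 and Pkm were 2.24-fold, 2.35-fold, 2.21-fold and 2.82-fold lower on day 3, and Gapdh 3.43-fold. Gapdh, often used as a reference gene, was at 1681 and 1582 FPKM at day 0 and 517 and 437 on day 3. Pkm gives the M1 and M2 pyruvate kinases by splicing, which gene totals cannot separate. The libraries count strand in a way that the sources used here do not give, and exons of 13 member genes, Gys1, Phkg1, Pfkm, Gpi1 and Pfkp among them, share bases with a gene on the other strand.

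**Figure D2:**
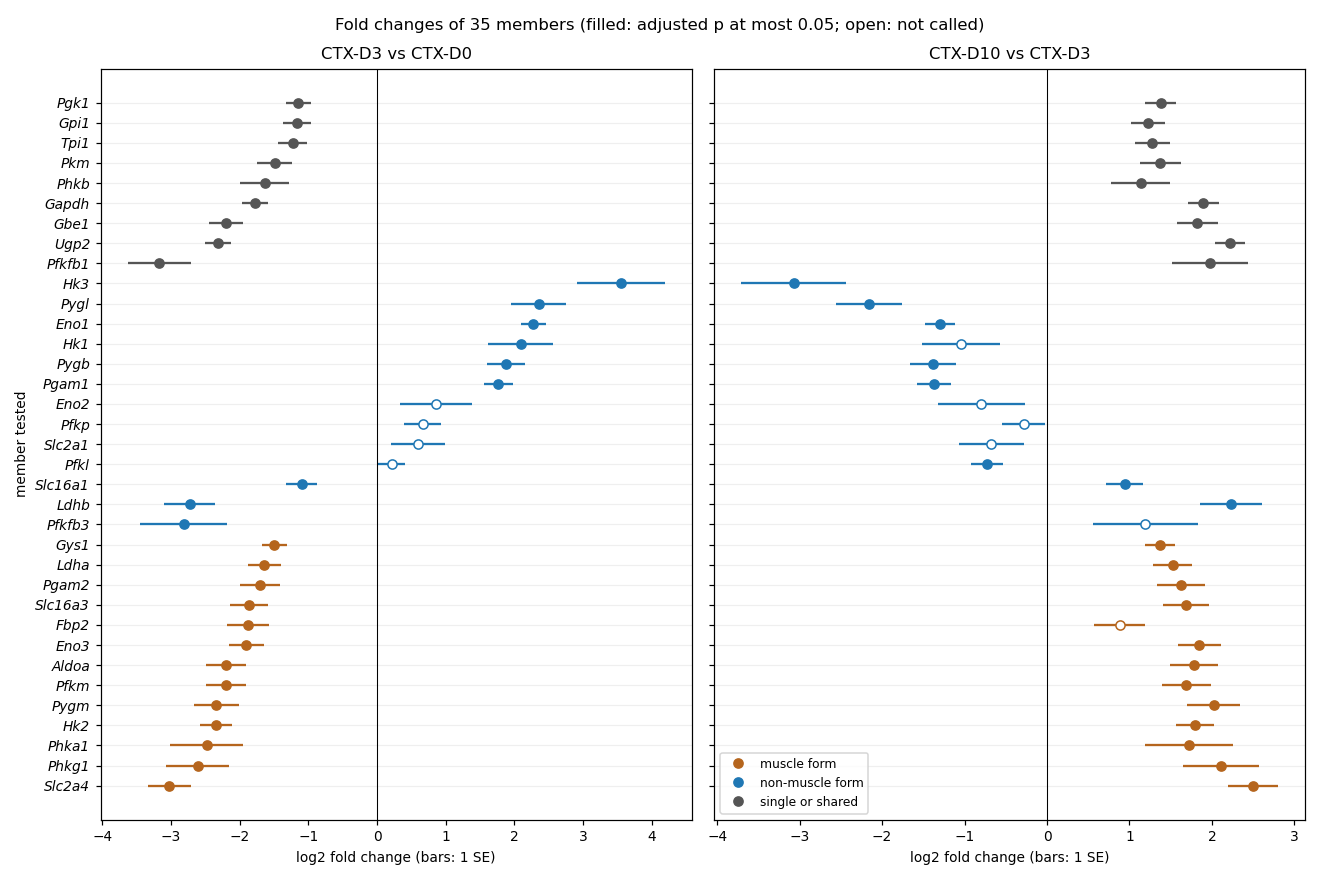
Log2 fold change with its SE for 35 members between day 3 and day 0 (left) and day 10 and day 3 (right), with filled points for an adjusted p no higher than 0.05. Muscle forms and single genes lie between -3.17 and -1.15 on the left and right of 0 on the right, and most non-muscle forms (blue) do the reverse.

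Sequence upstream of these genes is shown for the muscle form and the most risen other form of hexokinase, phosphorylase, enolase and mutase, the families with both forms in the sequence table whose ratio went down most on day 3. RefSeq start sites (GRCm38.p6, from 250 bases before to 50 after the start, 5′ to 3′ on the gene's strand) were found for 35 of 37 members, the others being Slc2a3 and Slc2a4. Capitals mark CAGCTG, one of the E boxes that muscle basic helix-loop-helix factors can bind, ACGTG or its complement CACGT, the core that hypoxia factors can bind, and the MEF2 motif. Of the 3 windows of Eno1 the first by position is shown.
Hk2, chr6:82774405-82774704, minus strand: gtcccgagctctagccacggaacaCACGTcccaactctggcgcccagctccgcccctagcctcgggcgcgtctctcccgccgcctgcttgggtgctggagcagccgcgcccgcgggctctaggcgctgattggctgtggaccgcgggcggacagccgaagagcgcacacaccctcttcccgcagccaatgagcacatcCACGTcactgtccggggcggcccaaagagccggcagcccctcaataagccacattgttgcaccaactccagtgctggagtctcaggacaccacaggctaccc
Hk3, chr13:55021336-55021635, minus strand: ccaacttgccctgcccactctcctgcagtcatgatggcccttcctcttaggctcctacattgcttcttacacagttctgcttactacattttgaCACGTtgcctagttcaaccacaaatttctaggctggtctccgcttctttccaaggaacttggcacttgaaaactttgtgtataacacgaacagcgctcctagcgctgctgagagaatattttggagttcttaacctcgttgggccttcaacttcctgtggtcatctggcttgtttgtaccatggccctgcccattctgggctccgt
Pygm, chr19:6384158-6384457, plus strand: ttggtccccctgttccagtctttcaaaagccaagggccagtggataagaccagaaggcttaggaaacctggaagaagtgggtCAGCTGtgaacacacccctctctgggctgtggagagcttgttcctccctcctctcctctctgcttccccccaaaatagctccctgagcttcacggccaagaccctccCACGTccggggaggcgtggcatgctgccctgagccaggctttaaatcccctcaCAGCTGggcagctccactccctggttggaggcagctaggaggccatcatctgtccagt
Pygl, chr12:70227634-70227933, minus strand: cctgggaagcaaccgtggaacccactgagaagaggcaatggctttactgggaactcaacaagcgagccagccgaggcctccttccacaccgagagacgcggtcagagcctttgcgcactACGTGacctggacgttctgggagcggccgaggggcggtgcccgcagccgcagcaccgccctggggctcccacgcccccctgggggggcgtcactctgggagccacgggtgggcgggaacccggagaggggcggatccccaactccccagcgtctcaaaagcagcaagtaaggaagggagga
Eno3, chr11:70656926-70657225, plus strand: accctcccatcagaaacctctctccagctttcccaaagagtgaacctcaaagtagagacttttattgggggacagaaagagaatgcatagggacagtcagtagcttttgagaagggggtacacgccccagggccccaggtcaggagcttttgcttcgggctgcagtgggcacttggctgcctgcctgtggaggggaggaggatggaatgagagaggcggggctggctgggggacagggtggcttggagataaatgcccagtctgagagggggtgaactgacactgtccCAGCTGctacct
Eno1, chr4:150236458-150236757, plus strand: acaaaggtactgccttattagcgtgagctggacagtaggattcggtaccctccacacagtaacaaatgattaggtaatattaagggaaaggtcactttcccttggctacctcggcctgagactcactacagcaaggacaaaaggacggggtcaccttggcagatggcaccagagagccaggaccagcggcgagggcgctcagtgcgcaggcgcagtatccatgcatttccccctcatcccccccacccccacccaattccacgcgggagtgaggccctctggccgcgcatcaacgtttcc
Pgam2, chr11:5803747-5804046, minus strand: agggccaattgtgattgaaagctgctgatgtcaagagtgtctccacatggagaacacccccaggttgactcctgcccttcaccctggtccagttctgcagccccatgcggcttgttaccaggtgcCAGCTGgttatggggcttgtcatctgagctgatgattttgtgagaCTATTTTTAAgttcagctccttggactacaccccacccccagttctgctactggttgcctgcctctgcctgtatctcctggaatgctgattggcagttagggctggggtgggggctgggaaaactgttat
Pgam1, chr19:41911621-41911920, plus strand: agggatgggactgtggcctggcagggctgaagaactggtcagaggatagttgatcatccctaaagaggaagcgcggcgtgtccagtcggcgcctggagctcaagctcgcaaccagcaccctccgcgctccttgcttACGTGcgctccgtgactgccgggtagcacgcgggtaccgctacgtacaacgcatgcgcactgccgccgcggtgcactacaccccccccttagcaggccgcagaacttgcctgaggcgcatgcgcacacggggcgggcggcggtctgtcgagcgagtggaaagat

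In these windows Pygm held 2 CAGCTG, and Eno3 and Pgam2 held 1 each, while Hk2 and the 4 other forms held 0. Hk2 held 2 ACGTG, and Hk3, Pygm, Pygl and Pgam1 held 1 each. The MEF2 motif was in that of Pgam2 alone. The first of these motifs, CAGCTG, reads the same on both strands and is one kind of CANNTG. Among the members with a window, it was found for 7 of 12 muscle forms, 0 of 14 non-muscle forms and 5 of 9 single or shared genes, beside 18.3% of the 27025 genes of the table. The wider CANNTG was in 10 of 12, 8 of 14 and 8 of 9, beside 75% of genes. ACGTG, searched on both strands, was in 7 of 12, 9 of 14 and 4 of 9, beside 21.8%, and the MEF2 motif in 1 of 12, 0 of 14 and 1 of 9, beside 2.16%. Genes with several start sites had several windows, and a match is a description of letters, not of a bound site.

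On day 1, 4 members were called. Pgam1 (1.98-fold) and Slc2a1 (3.70-fold) were called higher than at day 0, and Ldhb (3.16-fold) and Gys1 (2.09-fold) lower, with adjusted p of 0.0402, 0.0402, 0.0455 and 0.0273 in limma and log2 standard errors of 0.21, 0.39, 0.37 and 0.18. Over all genes 3.53% were called higher and 2.47% lower. An unadjusted p under 0.05 was found for 18 of 35 members, beside 26.8% of all genes, and the libraries did not overlap in 28, beside 52.4%. All 13 muscle forms had fitted values below 0, with a median of -0.69, and 1 of them was called. With a term for Xist 0 members were called, as were 0% of all genes, and leaving out 1 library gave between 0 and 6, beside 0.0542% to 11% of all genes. It gave 0 without either library of day 0, replicate 1 of day 1 or either library of day 5, and 1 (Gys1) without either library of day 3. Of these 10 fits, 5 called Gys1 and 2 each called Pgam1, Slc2a1 and Ldhb. Leaving out replicate 1 or 2 of day 1 put the log2 fold change of Slc2a1 at 1.29 or 2.48.

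From day 1 to day 3, 20 members fell and 4 rose, beside 16.6% and 14.5% of all genes. Gbe1 (4.64-fold; log2 fold change -2.21, SE 0.25, adjusted p = 0.00242), Hk2 (4.47-fold; -2.16, SE 0.23, adjusted p = 0.0023) and Pfkfb1 (3.80-fold; -1.93, SE 0.46, adjusted p = 0.0184) fell most. Slc2a1 was among the falls. The rises were Eno1 (4.16-fold; 2.06, SE 0.18, adjusted p = 0.00205), Pygl (3.31-fold; 1.73, SE 0.40, adjusted p = 0.0168), Pygb (2.28-fold; 1.19, SE 0.28, adjusted p = 0.0175) and Pgam1. With a term for Xist, or without replicate 2 of day 3, the calls came down to 5: Eno1 higher, and Hk2, Gbe1, Ugp2 and Gapdh lower, while 8.17% of all genes were called with the term and 7.79% without the library. Without replicate 1 of day 3 there were 15, beside 15.4% of all genes. With 1 library left out, Pygl and Pygb kept their call in 7 of 10 fits and Pfkfb1 in 8.

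From day 3 to day 5, 15 members rose and 2 fell, beside 7.23% and 5.46% of all genes. Of the muscle forms 10 of 13 rose, led by Eno3 (3.42-fold; log2 fold change 1.77, SE 0.26, adjusted p = 0.00866) and Slc2a4 (2.99-fold; 1.58, SE 0.31, adjusted p = 0.0194). Ugp2 rose too (3.26-fold; 1.71, SE 0.19, adjusted p = 0.00533), and Eno1 (1.64-fold; -0.71, SE 0.18, adjusted p = 0.0434) and Pfkl (1.66-fold; -0.73, SE 0.20, adjusted p = 0.049) fell. These counts rested on single libraries: they were 0 without replicate 2 of day 3 (0% of all genes) or replicate 2 of day 5 (0.272%), 4 without replicate 1 of day 5 (1.77%), 6 without replicate 1 of day 3 (3.47%), and 0, with 0% of all genes, with the term for Xist. Pfkl was called in 2 of the 10 fits with a library left out, Eno1 in 4, Slc2a4 in 7, and Eno3 and Ugp2 in 8 each.

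By day 10, 23 members were higher than on day 3 and 6 lower, beside 19.1% and 18.8% of all genes. Slc2a4 (5.65-fold; log2 fold change 2.50, SE 0.31, adjusted p = 0.00117), Ldhb (4.69-fold; 2.23, SE 0.37, adjusted p = 0.00358) and Ugp2 (4.66-fold; 2.22, SE 0.19, adjusted p = 6.02e-04) rose most. Hk3 (8.40-fold; -3.07, SE 0.64, adjusted p = 0.00827), Pygl (4.47-fold; -2.16, SE 0.40, adjusted p = 0.00553) and Pygb (2.60-fold; -1.38, SE 0.28, adjusted p = 0.00762) fell most. Leaving out replicate 1 or 2 of day 10 put the log2 fold change of Hk3 at -2.03 or -4.12. Fbp2 was the one muscle form not called, at 1.84-fold. With the term for Xist 26 members were called, beside 23.4% of all genes.

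Between day 10 and day 0 no member was called in limma, and 0.00597% of all genes were, while 6 of 35 members had an unadjusted p under 0.05, as did 1697 of 16753 genes (10.1%). All 13 muscle forms had fitted values below 0, from -1.0 to -0.06, in 4 of which the libraries did not overlap, as in 39.6% of all genes. Eno1 was the nearest to a call (log2 fold change 0.97, adjusted p = 0.283). A call that is missed does not show that the levels were the same, as Pfkfb3 illustrates with 23.9 and 6.43 FPKM on day 10 against 47.1 and 31.6 at day 0.

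**Figure D3:**
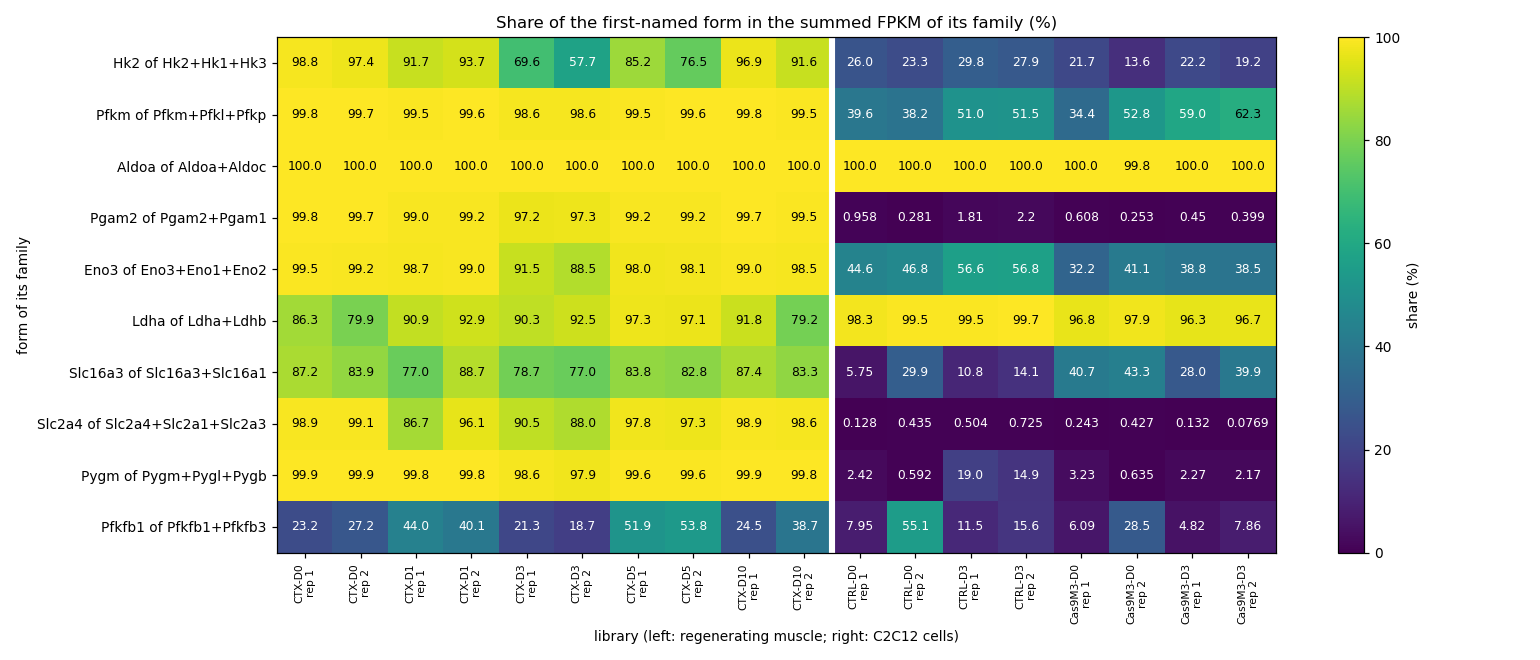
Share in percent of the first-named form in the summed FPKM of its family, for each of the 18 libraries (columns) and 10 families (rows), coloured from 0 to 100%. Pgam2, Slc2a4 and Pygm hold at least 86.7% in every muscle library and at most 19% in every cell library, and Hk2 drops to 57.7% in replicate 2 of day 3.

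The switch was also tested as a ratio within each library, the log2 of the muscle form (for PFKFB Pfkfb1, counted above with the single or shared genes) over the sum of the other forms, by an exact permutation F test over the 5 days with adjustment over all 20 ratio tests. The ratio differed between days for hexokinase, mutase and enolase (adjusted p = 0.0282 each, exact permutation), for aldolase and PFKFB (0.0296 each, exact permutation), and for glucose carriers and glycogen phosphorylase (0.0302 each, exact permutation). From day 0 to day 3 the mean log2 ratio went down by 4.90 for hexokinase, from 5.71 to 0.82. It went from 10.2 to 5.81 for phosphorylase, from 7.34 to 3.19 for enolase, from 6.59 to 3.02 for glucose carriers and from 8.60 to 5.12 for mutase. The aldolase ratio has a few reads of Aldoc as its denominator. The PFKFB ratio changed by only -0.35 from day 0 to day 3, and by 0.0784 with a pseudocount of 1. Pfkfb1 held 23.2% and 27.2% of that family at day 0 and 21.3% and 18.7% on day 3. Its share was highest on day 5, at 51.9% and 53.8%. Phosphofructokinase (adjusted p = 0.0808, exact permutation), lactate dehydrogenase (0.0752) and the lactate carriers (0.526) were not called, and 945 distinct splits put the smallest possible p at 0.00106 before adjustment. All of the calls were lost without either library of day 0, replicate 2 of day 1 or either library of day 5 (adjusted p = 0.0508 to 0.121, exact permutation). Of 10 fits with a library left out, glucose carriers were called in 1, PFKFB in 2, hexokinase, mutase and phosphorylase in 4 each, and aldolase and enolase in 5 each. Phosphofructokinase was called without either library of day 10 (adjusted p = 0.0476 and 0.0363, exact permutation), and lactate dehydrogenase without replicate 1 of day 10 (0.0363).

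In cells Mettl3 was at 4.70 and 5.65 FPKM in CTRL-D0 and 4.68 and 5.15 in CTRL-D3, against 0.331 and 0.118 in Cas9M3-D0 and 0.148 and 0.0805 in Cas9M3-D3. All knockdown libraries were thus far below all control libraries. In several families these cells used the non-muscle form. Pgam2 made up 0.253% to 2.20% of mutase FPKM, Slc2a4 0.0769% to 0.725% of glucose carrier FPKM and Hk2 13.6% to 29.8% of hexokinase FPKM, below every muscle library. Slc2a1 was the main glucose carrier (18.8 to 48.6 FPKM), Pgam1 the main mutase (142 to 333 FPKM), Pygb the main phosphorylase (15.2 to 23.8 FPKM) and Hk1 the main hexokinase (16.9 to 29.8 FPKM). Eno3 made up 32.2% to 56.8% of enolase FPKM, Pfkm 34.4% to 62.3% of phosphofructokinase, and Ldha at least 96.3% of lactate dehydrogenase. Eno1 in cells is uncertain, because Eno1b, a near copy of it, was listed at 65.6 to 262 FPKM there, and reads of the 2 may have been split between them. The 2 tables were scaled separately, so only shares within a library, not levels, are set side by side. Hk3 was listed at 0 in all 8 cell libraries.

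Differentiation of control cells was read first for the muscle forms. Pygm stood at 0.498 and 0.129 FPKM in CTRL-D0 and 3.76 and 2.65 in CTRL-D3. Pygm thus had no overlap, as was so for 19 of 30 members and 47.2% of all genes. It had the largest fitted rise (8.81-fold; log2 fold change 3.14, SE 0.65, adjusted p = 0.0912, limma), short of a call, and the log2 fold change was 2.45 without replicate 2 of CTRL-D0 and 3.83 without replicate 1. With the replicate number as a block it was called (SE 0.47, adjusted p = 0.0379), the only member, beside 2.97% of all genes. In the fit without the block 0 of 30 members were called, 7 had an unadjusted p under 0.05, beside 18.2% of all genes, and 1.14% of all genes were called. Pgam2 was at 2.40 and 0.616 FPKM in CTRL-D0 and 2.91 and 3.86 in CTRL-D3. Eno3 was at 148 and 249 and then at 218 and 236, overlapping. Of the 10 tested muscle forms, 5 had fitted values below 0 and 5 above. Their median was 0.06 and the lowest was -1.05, that of Slc16a3. Most common forms had fitted values below 0: 9 of 11 tested non-muscle forms, with a median of -0.49, and 7 of 9 single or shared genes, with a median of -0.52, beside -0.02 for all genes. Slc16a1 went from 34.3 and 20.1 to 14.9 and 13.5 FPKM, Pgk1 from 580 and 419 to 289 and 304, and Ldhb from 5.57 and 2.31 to 1.25 and 0.842. Without replicate 1 of CTRL-D0, the growth medium library with the higher fibre marker sum, 7 of 30 members were called, beside 27% of all genes: Pygm and Phkb higher, and Tpi1, Gapdh, Ldha, Pkm and Slc16a3 lower.

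In knockdown cells on day 3 Pygm was at 0.435 and 0.444 FPKM, near the 0.581 and 0.152 of Cas9M3-D0, and the difference between Cas9M3-D3 and Cas9M3-D0 was not called (log2 fold change 0.38, SE 0.65, adjusted p = 0.908, limma). Pgam2 was at 0.641 and 0.567 FPKM, against 2.91 and 3.86 in CTRL-D3. Eno3 was at 68.7 and 80.5, against 218 and 236. Ldhb, in contrast, was at 6.60 and 6.59 FPKM, against 1.25 and 0.842. Slc16a3 was at 4.02 and 5.38 FPKM against 1.80 and 2.23, and Hk2 at 4.80 and 4.42 against 9.57 and 7.69. Pfkm was at 27.6 and 33.2 FPKM against 24.4 and 25.9.

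Between Cas9M3-D3 and CTRL-D3 no member was called in the fit of all 4 groups, while 1.98% of all genes were. An unadjusted p under 0.05 was found for 4 of 30 members and 17.6% of all genes. With the replicate block 3 were called: Ldhb (log2 fold change 2.57, SE 0.33, adjusted p = 0.0242) higher, and Eno3 (-1.61, SE 0.22, adjusted p = 0.0264) and Pygm (-2.60, SE 0.47, adjusted p = 0.0493) lower, beside 3.65% of all genes. Without the block their adjusted p were 0.0678, 0.0729 and 0.109. A fit of these groups alone called 8 of 29 members, beside 21.6% of all genes: these 3, with Pgam2, Hk2, Tpi1 and Eno2 lower and Slc16a3 higher. In the fit of all 4 groups, leaving out replicate 1 of CTRL-D0 called 2 (Eno3 and Ldhb; 6.48% of all genes) and leaving out replicate 2 called 3 (6.53%). In 29 of 30 members the libraries of the groups did not overlap, which held for 63.5% of all genes tested. The 10 fibre markers summed to 688 and 677 FPKM in CTRL-D3 and 22.6 and 17.8 in Cas9M3-D3, and Ckm, the muscle creatine kinase, was at 5.65 and 6.33 FPKM against 0.0739 and 0.0701. The part of that difference in the values of Pygm, Pgam2 and Eno3 was not tested.

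In growth medium no member was called between Cas9M3-D0 and CTRL-D0, as was 0% of all genes. An unadjusted p under 0.05 was found for 3 of 30 members and 9% of all genes. Slc16a3 was at 18.3 and 10.6 FPKM in Cas9M3-D0 and 2.09 and 8.59 in CTRL-D0, and Ldhb at 13.7 and 6.42 against 5.57 and 2.31, both without overlap. The libraries did not overlap in 8 of 30 members, beside 29.4% of all genes. Pfkp was at 5.69 and 6.38 FPKM against 3.83 and 3.30 (log2 fold change 0.74, SE 0.18, adjusted p = 0.382). Between Cas9M3-D3 and Cas9M3-D0 no member was called beside 0.0289% of all genes, and 24 of 30 had fitted values below 0. There 16 of 30 members had an unadjusted p under 0.05 in limma, beside 12.6% of all genes. The effect of the knockdown on day 3 did not differ from that in growth medium beyond the threshold for any member, nor for any gene (0%). The largest such difference was that of Pygm (-2.76, SE 0.92, adjusted p = 0.483, limma). None of the 10 isoform ratios was called over the 4 cell groups, enolase being the lowest (adjusted p = 0.0714, exact permutation), and 105 distinct splits allow no p below 0.00952. Without replicate 1 of Cas9M3-D0 the ratio was called for hexokinase, phosphofructokinase and enolase (adjusted p = 0.0212 each, exact permutation) and aldolase (0.0346), without replicate 2 for phosphofructokinase and enolase (0.0235 each), and without replicate 2 of CTRL-D0 for the lactate carriers (0.0265).

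**Figure D4:**
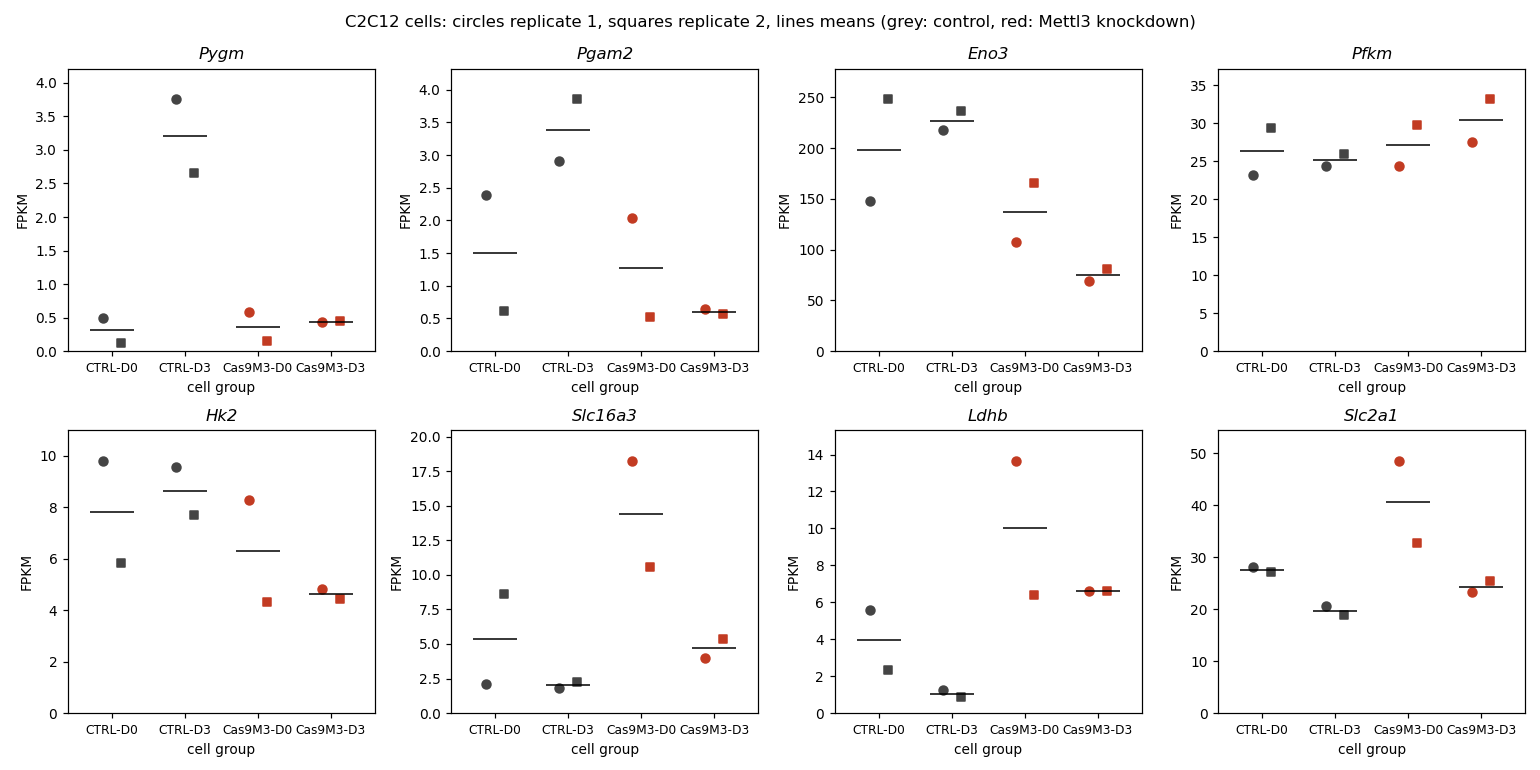
FPKM of 8 members in the 4 cell groups, with circles for replicate 1, squares for replicate 2 and lines for means, on axes that start at 0. Pygm is above 2 FPKM only in CTRL-D3, Pgam2 is highest there, Eno3 is lowest in Cas9M3-D3, and Ldhb and Slc16a3 are higher in Cas9M3-D3 than in CTRL-D3.

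A list of 62 further genes of sugar metabolism was read in the same fits, and 48 passed the filter in muscle. Between day 0 and day 3, 30 fell and 7 rose, with a median log2 fold change of -1.19. The pyruvate dehydrogenase genes Pdha1 (269 to 67.0 FPKM as group means), Pdhb (106 to 36.0) and Dlat (63.4 to 18.4) fell, as did both subunits of the mitochondrial pyruvate carrier, Mpc1 (91.7 to 19.1) and Mpc2 (36.8 to 6.60). In glycogen handling Ppp1r3a, which brings phosphatase to glycogen in muscle (28.6 to 4.20 FPKM), and Gyg, the primer (137 to 43.2), fell. The rises included Hif1a, the hypoxia factor (3.003 to 8.84 FPKM), Pdk3, a kinase that inhibits pyruvate dehydrogenase (0.836 to 3.47), and Phka2, the liver subunit of phosphorylase kinase (1.65 to 5.48), opposite to its muscle partner Phka1. In cells 37 genes of the list passed the filter and 0 were called in any of the 5 comparisons.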

How the data were processed

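Bulk RNA-seq was analysed in 18 of 26 libraries; 8 overexpression libraries were not analysed here. The authors aligned reads with HISAT2 to GRCm38, counted them with featureCounts, and deposited FPKM values made with DESeq2. FPKM is not a count, so limma (3.58.1, R 4.3.3) was fitted on log2(FPKM + 0.1) across all genes with at least 0.5 FPKM in 2 libraries, each table on its own with all its groups, with Benjamini-Hochberg adjustment over all genes tested. Fold changes are on that scale and understate changes of low genes. The scripts were tested on simulated data. Low values were whole multiples of 1 read for at least 96.49% of values in muscle and 98.51% in cells (tolerance 0.02), which gave the depth; one read on 1 kb was worth 0.0315 to 0.104 FPKM. Isoform ratios were compared over the 5 days or the 4 cell groups by exact permutation F tests. The p is the share of splits with an F at least as large as the observed one. Comparisons of 2 libraries against 2, which could give no p below 0.333, were not made in this way. Same-numbered cell libraries deviated together (correlations of deviations 0.278 to 0.680), so values with the replicate number as a block are given where they change a call. Alternatives were another pseudocount, filter, normalization or fold threshold, a term for libraries with Xist, the compared groups alone, and each library left out. Of the called members, those with the 3 largest rises and 3 largest falls in a muscle comparison were given full statistics, with a few others that the text describes. The members and lists were chosen with earlier results of these data known. RefSeq protein sequences were not used here.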

Additional observations from a re-analysis of the deposited data

How the results depend on the processing

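Between day 3 and day 0, 28 to 32 members were called whichever library was left out, and 16 with a log2 fold change of at least 2. Between day 10 and day 3 the counts were 23 to 31, and 7 with that threshold. Between day 1 and day 0 they were 0 to 6 with a library left out, 1 without the filter or with quantile normalization, and 0 with the fold threshold, the term for Xist or the compared groups alone. Between day 3 and day 1 they were 5 to 26, with 5 under the term for Xist and 3 under the fold threshold. Between day 5 and day 3 they were 0 to 19, with 7 without the filter and 0 under the term for Xist or the fold threshold. In cells they were 0 to 7 for CTRL-D3 against CTRL-D0, 0 to 1 for Cas9M3-D3 against Cas9M3-D0 and 0 to 3 for Cas9M3-D3 against CTRL-D3. A pseudocount of 1 called 1 member in the first and the last of these, quantile normalization 1 in the last, and the compared groups alone 8 in the last. The replicate block called 1 and 3 there and changed no other count of cells by more than 1.5 times. Quantile normalization put the median of all genes between day 3 and day 0 at -0.119, against 0.0075. The cause of these changes was not tested.

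Muscle libraries with the same number did not deviate together (correlations -0.0187 to 0.211). With the replicate block none of the day ratios was called by the exact permutation test (adjusted p = 0.0556 to 0.0926 for those called without it), although the log2 differences between day 3 and day 0 were as before: -4.90 for hexokinase, -2.76 for aldolase, -3.48 for mutase, -4.16 for enolase, -3.57 for glucose carriers, -4.39 for phosphorylase and -0.35 for PFKFB. The block called 4, 31, 23, 18 and 30 members for days 1 and 3 against 0, 3 against 1, 5 against 3 and 10 against 3. Over all 16753 genes it called 912, 8314, 5530, 2258 and 6625 in those comparisons.

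With a pseudocount of 1 the PFKFB ratio in muscle turned to 0.0784, and with 0.01 the aldolase ratio in cells turned to 0.114. With a library left out, the log2 ratio differences ran from -5.46 to -4.33 for hexokinase, -2.75 to -2.41 for phosphofructokinase, -2.84 to -2.67 for aldolase, -3.89 to -3.07 for mutase, -4.51 to -3.81 for enolase, -4.69 to -4.09 for phosphorylase, 0.759 to 1.42 for lactate dehydrogenase, -3.76 to -3.38 for glucose carriers and -0.504 to -0.200 for PFKFB in muscle. In cells they ran from 0.207 to 0.409 for hexokinase, 0.679 to 0.766 for phosphofructokinase, -0.218 to 0.101 for aldolase, 0.573 to 0.702 for enolase, 0.0118 to 1.87 for lactate dehydrogenase, -1.54 to 1.21 for lactate carriers and -2.64 to 0.873 for PFKFB. Pygm between Cas9M3-D3 and Cas9M3-D0 ran from -0.34 to 1.10. The 2 libraries of a group limit what a missed call can show, and low members such as Aldoc, Pygl and Hk3 rest on few reads.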
